A study of Homo sapiens with 4 samples.

Results

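The replication-dependent histone genes are the protein-coding genes of GENCODE on hg38 whose symbol is H2AC, H2BC, H3C or H4C followed by digits, or H1-1 to H1-6. This rule gave 69 of 20033 protein-coding genes: 6 linker histone H1 genes, 17 H2A, 18 H2B, 13 H3 and 15 H4 genes. Each gene was taken with 2 kb on each side, and every called peak overlapping that window by at least 1 bp was assigned to it. MYOD and H3K27ac had been profiled by chromatin immunoprecipitation and sequencing in RD cells, an established fusion-negative rhabdomyosarcoma line, which is a muscle-lineage tumor that expresses MYOD without completing differentiation. The control cells (shSCR, labelled WT) had received a lentiviral non-targeting shRNA and the others (shSKP2, labelled SKP2 knockdown) an shRNA to SKP2, the substrate receptor of the SCF ubiquitin ligase. The study describes infection with lentiviral vectors and 1 of its SKP2 shRNAs for these libraries. There were 4 libraries in 4 groups, 1 per group, so no difference could be set against a replicate spread and no test between groups was possible.

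Replication-dependent histone genes supply the core and linker histones that package newly made DNA. Most lie in a few clusters and many H2A and H2B genes stand head to head around a shared promoter. They are transcribed at the entry to and during S phase at the histone locus body, under NPAT, a target of cyclin E with CDK2. Their transcripts lack introns and a poly(A) tail and end in a short stem-loop that SLBP binds. SKP2 directs degradation of CDK inhibitors and has cyclin E among its targets. H3K27ac is an acetylation of histone H3 at active promoters and enhancers, and MYOD binds E-box motifs of the form CANNTG.

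The members were recognizable by sequence. The stem-loop was found in the annotated gene with 500 bp on each side in 66 of the 69 members. For 4081 other protein-coding genes of chromosomes 1, 6 and 12 the canonical transcript with 500 bp on each side was searched, and 1.08% had a match. No match was found at H3C6, H2BC10 and H4C13. The commonest forms are printed because they define the gene class, as DNA on the strand of the gene. Capitals mark the element, which is the whole run.
Stem-loop of 40 members: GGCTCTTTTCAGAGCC
Stem-loop of 10 members: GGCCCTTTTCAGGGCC
Stem-loop of 9 members: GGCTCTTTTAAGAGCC

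The shared promoters of head-to-head pairs carried the letters of known histone promoter elements. In RefSeq promoters (GRCh38.p14, 250 bases before to 50 after the start) 64 of the 69 members were matched. The octamer ATTTGCAT, the binding motif of OCT1, was present on either strand in 26 of them (40.6%) against 1.80% of all 27305 promoters. It was found in 11 H2A, 14 H2B and 1 H3 promoter and in no H1 or H4 promoter. The CCAAT motif was in 54 (84.4%, against 35.7%) and TATAAA in 42 (65.6%, against 12%), whereas the E-box CAGCTG was in 11 (17.2%) and in 17.7% of all promoters. The stretch between the gene starts is printed for 3 pairs with different outcomes after SKP2 knockdown: H2BC13 and H2AC13 had H3K27ac in the knockdown list alone, H2BC12 and H2AC12 were nearly level, and H2BC11 and H2AC11 had less cover. Capitals mark ATTTGCAT, CCAAT and TATAAA on either strand, in hg38 on the plus strand, and where TTTATA and TATAAA overlap the whole run is in capitals.
H2BC13 and H2AC13, chr6:27807930-27808172: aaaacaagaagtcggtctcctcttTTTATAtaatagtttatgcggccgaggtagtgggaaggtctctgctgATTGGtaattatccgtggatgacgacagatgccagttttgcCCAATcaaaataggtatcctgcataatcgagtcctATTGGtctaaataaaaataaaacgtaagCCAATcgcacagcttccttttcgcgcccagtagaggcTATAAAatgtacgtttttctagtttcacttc
H2BC12 and H2AC12, chr6:27146856-27147105: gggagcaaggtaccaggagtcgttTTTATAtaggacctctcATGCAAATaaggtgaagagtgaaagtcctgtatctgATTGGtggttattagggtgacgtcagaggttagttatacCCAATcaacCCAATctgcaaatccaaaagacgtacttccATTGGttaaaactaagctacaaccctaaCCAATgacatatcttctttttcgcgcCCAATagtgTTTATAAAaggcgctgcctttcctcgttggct
H2BC11 and H2AC11, chr6:27132796-27133042: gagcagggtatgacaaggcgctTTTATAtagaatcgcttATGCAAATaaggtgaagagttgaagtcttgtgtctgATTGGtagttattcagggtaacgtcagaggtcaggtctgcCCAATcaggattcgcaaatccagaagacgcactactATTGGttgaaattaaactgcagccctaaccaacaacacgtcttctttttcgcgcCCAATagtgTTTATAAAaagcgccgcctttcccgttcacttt
The last of these held 1 octamer and 4 CCAAT motifs, and the H2BC12 and H2AC12 stretch 1 octamer and 6. The H2BC13 and H2AC13 stretch held 4 CCAAT motifs and no octamer, which says only that these letters are not in that window. These matches are descriptions of sequence and do not show that a factor was bound.

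The lists gave the following facts for all members. The H3K27ac lists held 25356 control and 38457 knockdown peaks and the MYOD lists 5814 and 8457, on chromosomes 1 to 22, X and Y. Read totals are not in the lists, so the lowest local background recovered from each list served as a proxy for depth. For H3K27ac the knockdown value was 0.92 times the control one and for MYOD 1.31 times. H3K27ac peaks covered 2.05 times as much of the genome after knockdown, and their median width was 487 bp against 363 bp. The deposited peak names skip some numbers, and no skipped number lay between peaks touching a member window in any list. Within 2 kb of MYOG, a muscle regulator downstream of MYOD, there was 1 MYOD peak in each arm, and 1 H3K27ac peak in the control and 2 after knockdown. MYOD1, which encodes MYOD, had 1 and 2 H3K27ac peaks, and DES and MYF5 had none. SKP2 depletion itself cannot be read from these lists.

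The question was then whether acetylation at histone genes differed between SKP2-depleted and control cells. Most histone genes already carried H3K27ac in control cells, and the stretch covered by peaks was nearly level after knockdown at a typical member, while at most other genes it was larger. In the control list 49 of the 69 members (71%) had a peak in their window, against 53.5% of all protein-coding genes. In the knockdown list 55 members (79.7%) had one, against 64.1% of all genes. The higher count went with the longer list: with both lists cut to equal length 49 members had a peak in the control and 48 after knockdown, and at a minimum -log10 p of 10 the counts were 37 and 36. Over all member windows, which merge into 34 separate stretches of 387 kb in all, peaks covered 31647 bp in control and 40133 bp in knockdown cells, or 1.27 times as much. In bulk chromatin, fewer cells with the mark and less of the mark per cell cannot be told apart.

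Members with a peak in both lists had a median log2 ratio of cover, knockdown over control, of 0.11 (1.08-fold, quartiles -0.11 to 0.33, 49 genes). Over all protein-coding genes with a peak in both lists the median was 0.83 (1.78-fold, quartiles 0.42 to 1.34, 10581 genes). Of all members, 36 (52.2%) had more covered sequence after knockdown, against 60.6% of all genes. Less cover was found at 19 members (27.5%), against 4.12% of all genes. With lists of equal length 26 members had more and 25 had less. At 5 members (7.25%) the cover in both lists was at least 2-fold higher after knockdown, against 21.4% of all genes, and at 1 member (1.45%) at least 2-fold lower, against 0.23%. Neighbors in a cluster share windows and peaks, so these genes are not independent: of the 34 merged stretches, 22 had more and 10 had less cover.

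**Figure D1:**
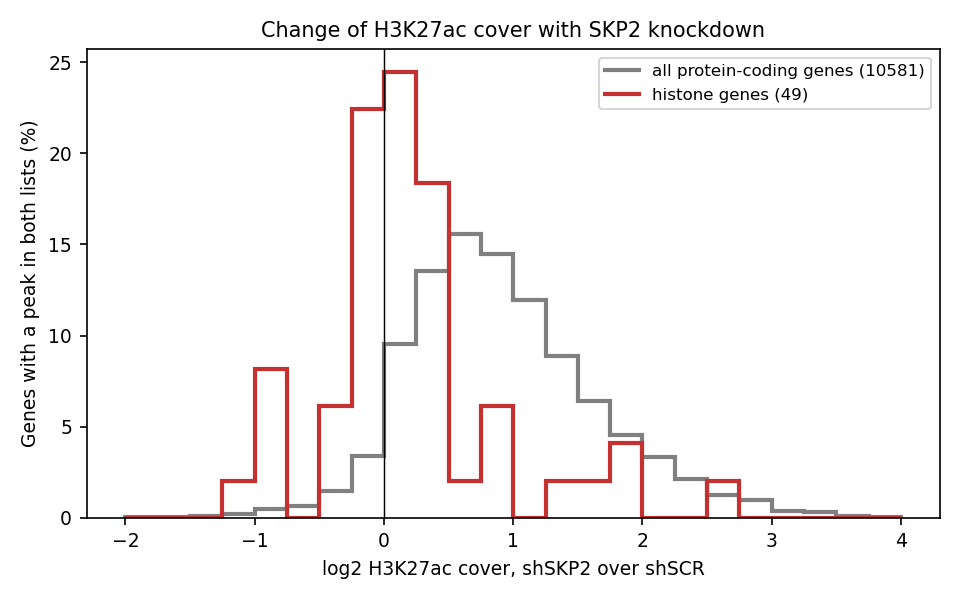
Distribution of the log2 ratio of H3K27ac cover, shSKP2 over shSCR (x axis), as the percentage of genes with a peak in both lists (y axis), for 49 histone genes (red) and 10581 protein-coding genes (gray). The histone genes center near 0 with a median of 0.11, and the protein-coding genes near 0.83.

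Gene length and starting cover were looked at beside this difference. With the window set to 2 kb on each side of the start, the medians were 0.11 for members and 0.66 for all genes. Members with a gene under 3 kb had a median of 0.08 and other genes of that length 0.64. Control cover moved with the ratio: members had a median of 1173 bp in the control against 769 bp for all genes, and after knockdown 1213 against 1413 bp. In start windows with 1 to 499 bp of control cover, other genes had a median log2 ratio of 1.20 and the 8 members 0.17. With 500 to 999 bp the values were 0.61 and 0.45 (12 members). With 1000 to 1499 bp they were 0.32 and 0.02 (20 members), and with 1500 to 2499 bp 0.18 and -0.12 (5 members). The members were thus lower in each of these classes, by the least at 500 to 999 bp, and the gap within classes was smaller than the pooled one except in the lowest class. Genes with over 2499 bp of control cover were in no class, and neighboring members of a class can share peaks. Cytosolic ribosomal protein genes, another set of short and highly active genes, had a median of 0.64 (77 genes), and DNA replication genes of 0.68 (30 genes, of which 28 had a peak in both lists).

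By family, no H4 gene had less cover after knockdown, and only 4.12% of all genes did, against 60.6% with more. Of the 15 H4 genes 11 had more cover and 4 had no peak in either list, and their median log2 ratio was 0.44 (9 genes with a peak in both lists). All 9 had more cover, as did 93.4% of all genes with a peak in both lists, whose median was higher at 0.83. Merged, they held 7296 bp of control cover and 12336 bp of knockdown cover (1.69 times). The H2A genes were evenly split, with 7 more and 7 less and a median of -0.03. The H2B genes had 9 more and 7 less (median 0.02), the H3 genes 7 more and 4 less (median 0.04) and the H1 genes 2 more and 1 less (median 0.03). The control cover of H4 genes with a peak in both lists was a median of 595 bp (189 to 1594 bp), against 1068 bp for H2A, 1286 bp for H2B, 1173 bp for H3 and 555 bp for H1. Its part in the family difference was not tested.

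**Figure D2:**
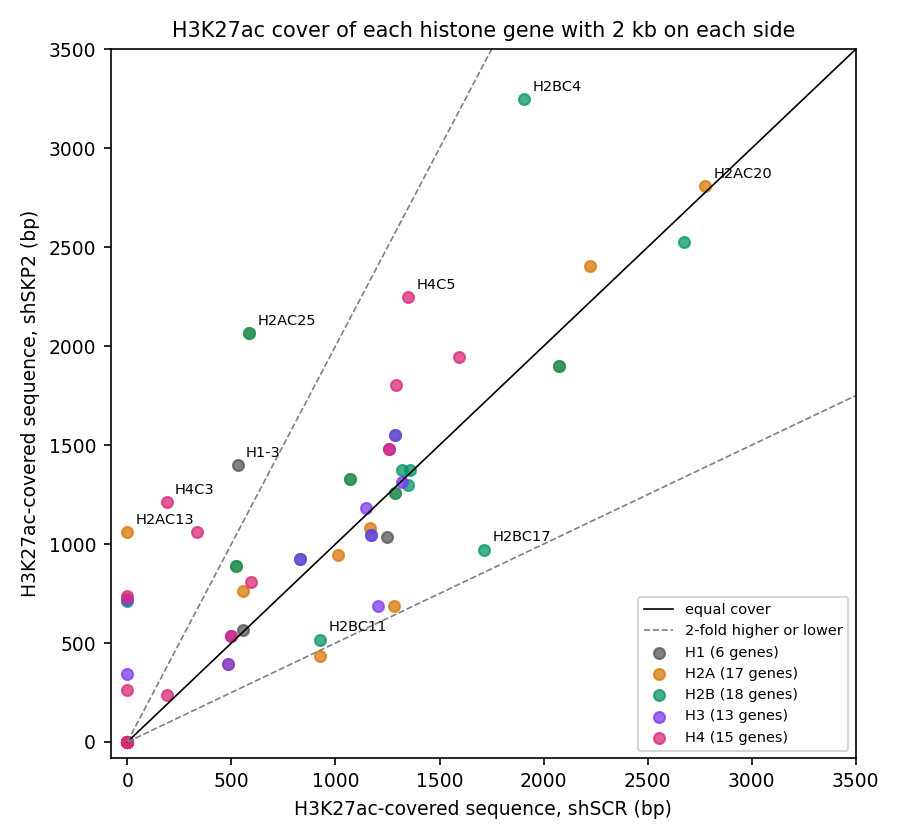
H3K27ac-covered sequence in each of the 69 histone gene windows, in bp, in the shSCR library (x axis) and the shSKP2 library (y axis), colored by family; genes that share a window overlap and darken. Most points lie near the line of equal cover, H2AC25 (585 to 2066 bp) and H4C3 (189 to 1213 bp) lie above the 2-fold line, and H2BC17 (1713 to 972 bp) lies below the line of equal cover.

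Cover was described by cluster next, with members split where neighboring genes are over 0.25 Mb apart. The largest cluster, H1-1 to H4C8 (chr6:26017032-26285638), holds 32 members. H3K27ac peaks took up 16050 bp of it in control cells and 20422 bp in knockdown cells (1.27 times), with more at 18 members and less at 8. The second cluster of chromosome 6, H2BC13 to H2BC17 (chr6:27807479-27893891, 16 members), had 4618 and 6272 bp (1.36 times). It combined gain and loss, with more cover at 7 members, less at 5 and none in either list at 4. Between these lies H2BC11 to H2AC12 (chr6:27125897-27147562, 5 members), the only cluster with less total cover after knockdown, at 2213 and 2034 bp (0.919 times). Here 4 members had less cover and 1 had more, and the median log2 ratio was -0.44.

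On chromosome 1, the 11 members from H2BC18 to H2AC21 (chr1:149782689-149887965) had 5824 and 6204 bp in the control and knockdown lists (1.07 times). The pair H2AC25 and H2BC26 (chr1:228434777-228463104) had 585 and 2066 bp (3.53 times), the highest ratio of the 7 places. H4C16, alone on chromosome 12 (chr12:14767999-14771131), had 1289 and 1805 bp (1.40 times). The pair H2AC1 and H2BC1 (chr6:25723397-25727345), known for expression in testis, had 1068 and 1330 bp (1.25 times) and kept both of its peaks. Other genes inside the clusters were few. BOLA1, a mitochondrial iron-sulfur factor beside H2AC21, had 1804 and 1986 bp, HFE, an iron-uptake regulator within the largest cluster, 705 and 1089 bp, and FCGR1A, an Fc receptor gene, no peak.

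**Figure D3:**
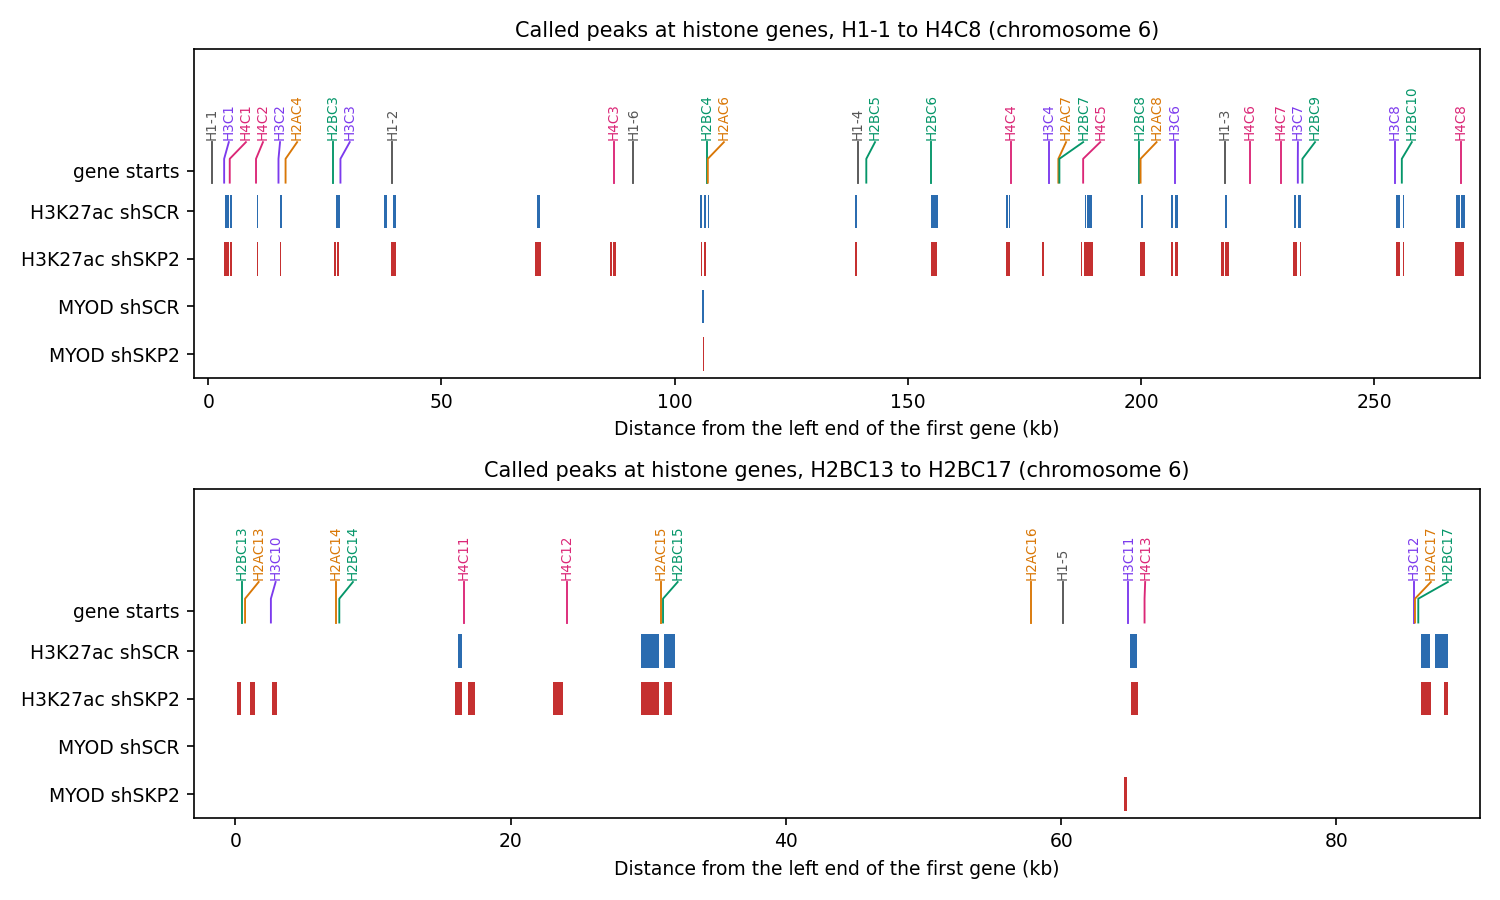
Called peaks of the 4 libraries (rows; blue shSCR, red shSKP2) at the histone genes of the 2 larger chromosome 6 clusters, drawn to scale against the distance from the left end of the first gene in kb, with gene starts colored by family (gray H1, orange H2A, green H2B, purple H3, pink H4). In the upper map the H3K27ac rows largely match, and in the lower map the knockdown row alone has peaks at H2BC13, H2AC13, H3C10 and H4C12.

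The 5 largest gains were at H2AC25, H2BC26, H2BC4, H2AC13 and H4C3. H2AC25 and H2BC26, a head-to-head pair, share a window in which a 907 bp knockdown peak near H2BC26 (4.19-fold over local background, pileup 31) had no control counterpart. Here fold is the deposited enrichment at the summit and pileup the number of fragments there. H2BC4 had 1908 and 3248 bp, a difference of 1340 bp, in a window of a 37.6 kb annotated gene whose canonical transcript is 0.46 kb. That window includes HFE (705 and 1089 bp) and H4C3, so the H4C3 gain is counted at both genes. The peaks near the H2BC4 start also fill the H2AC6 window, which had less cover after knockdown (1014 and 946 bp). H4C3 had 189 and 1213 bp, with a knockdown-only peak of 635 bp whose summit lay 106 bp downstream of the H4C3 start (5.30-fold, pileup 25). H2AC13 had no control peak and 1059 bp after knockdown.

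The 5 largest losses lay at H2BC17, H2AC17 and H3C12, at the end of the second chromosome 6 cluster, and at H2AC11 and H2BC11. The first 3, which stand together and encode H2B, H2A and H3, had 1713, 1282 and 1203 control bp and 972, 686 and 686 knockdown bp. Both of their control peaks were still overlapped by knockdown peaks, and a control peak of 1000 bp was called as 286 bp after knockdown. The summit pileups of these peaks were 36 and 32 in the control and 33 and 30 in the knockdown. H2AC11 and H2BC11 had 927 control bp each and 435 and 517 knockdown bp. Their 347 bp control peak, with its summit 409 bp from the H2BC11 start (2.93-fold, pileup 27), had no knockdown counterpart. At the H2BC12 and H2AC12 pair, control peaks of 689 and 597 bp were called as 1 peak of 1256 bp, so the cover was 1286 and 1256 bp.

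A peak in the knockdown list alone was found at 6 members (8.70%), against 11.2% of all genes, and in the control list alone at none, against 0.724%. The 6 were H3C4 (346 bp), H4C9 (261 bp), H2BC13 (712 bp), H2AC13 (1059 bp), H3C10 (723 bp) and H4C12 (740 bp). They encode H3, H4, H2B, H2A, H3 and H4, in that order. The first 3 of the H2BC13 cluster share peaks of 336, 376 and 347 bp, with folds of 3.31, 3.47 and 3.13 and pileups of 21, 23 and 23. The H4C12 peak was stronger (4.77-fold, pileup 33, summit 564 bp downstream of the start). Whether the control library held signal under the calling threshold at these places cannot be read from the lists.

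No H3K27ac peak in either list was found at 14 members. These were the linker histone genes H1-1, H1-5 and H1-6, the H2A genes H2AC7, H2AC14 and H2AC16, and the H2B genes H2BC7 and H2BC14. The others were the H3 genes H3C14 and H3C15 and the H4 genes H4C6, H4C7, H4C14 and H4C15. H1-1 and H1-6 are known for expression in few tissues, H1-6 in testis. The chromosome 1 genes among them lie in near-identical copies: every 75-base word of H3C14 and H3C15 with their windows recurs within the clusters (100%), and 98.6% and 98.5% for H4C14 and H4C15. The windows of H2AC18 and H2AC19 in the same duplication were repeated at 72.2% each, and both held peaks. Reads that match several copies equally cannot be placed by sequence alone, and values at these 6 genes are uncertain. The other 10 members without a peak lie on chromosome 6, in windows with under 10% of repeated words. Over the canonical transcript alone, however, 64.2% of words were repeated at H2AC14. Among members with peaks the transcript share was 61.3% at H2AC13, 91.4% at H4C11 and 92.0% at H4C12. Signal over these transcripts is uncertain as well.

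Peaks at histone genes sat close to the gene starts. Of the 52 control peaks 43 had their summit within 1 kb of a member start, 25 of them downstream and 18 upstream. Of the 53 knockdown peaks 45 did, 26 downstream and 19 upstream. The start itself was nearly free of peaks. Among the 47 members with a control peak within 2 kb of the start, 2.13% were covered at the start in the control and 12.8% after knockdown, against 20.6% and 40.2% of 8265 other genes. Upstream by 500 bp, 59.6% and 61.7% of members were covered, and 35.6% and 53.2% of other genes. Downstream by 500 bp the members had 38.3% and 55.3%, and the other genes 32.7% and 56.1%. The gap between the arms varied with distance. Averaged over 50 to 1000 bp upstream, member cover was 40.7% in the control and 44.7% after knockdown, with differences of -6.38 to 8.51 percentage points at single positions. Over the same distance downstream it was 32.0% and 42.1%, with differences of 2.13 to 21.3 points. Other genes had 25.9% and 40.9% upstream and 32.8% and 49.7% downstream. Many upstream sides are also the downstream side of a divergent neighbor.

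**Figure D4:**
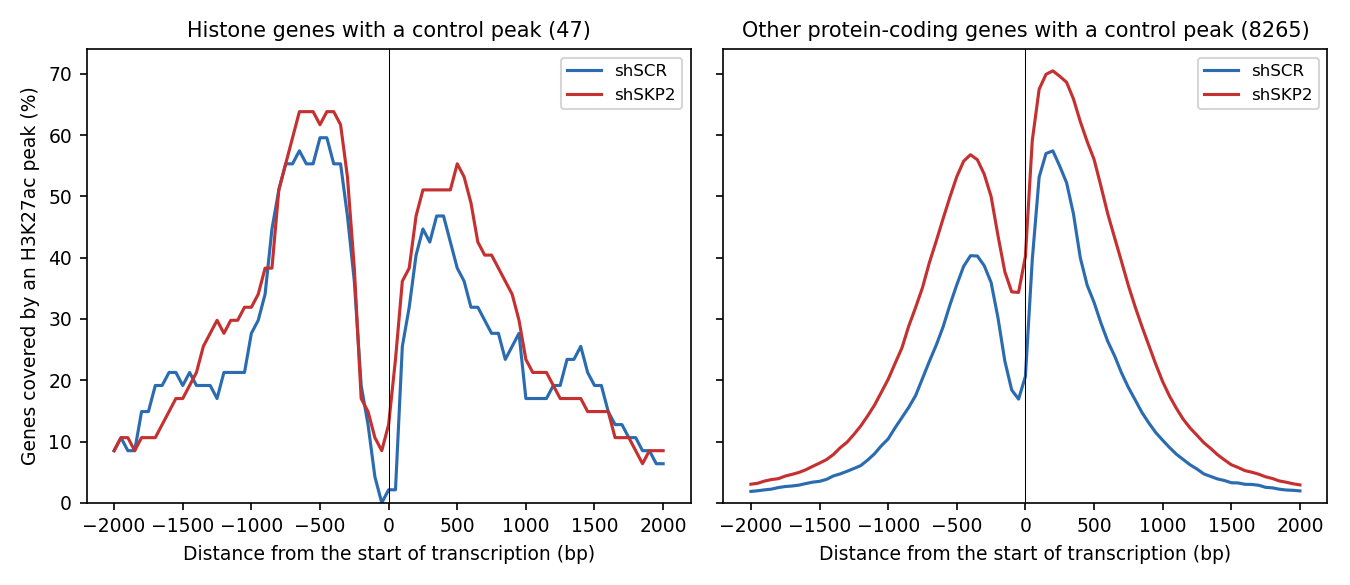
Percentage of genes covered by an H3K27ac peak (y axis) by distance from the start of transcription in bp (x axis, positive is downstream), for 47 histone genes and 8265 other protein-coding genes with a control peak within 2 kb, in shSCR (blue) and shSKP2 (red). Averaged over 50 to 1000 bp, the histone gene lines are at 40.7% and 44.7% upstream and 32.0% and 42.1% downstream, and those of other genes at 25.9% and 40.9% and at 32.8% and 49.7%.

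Peak height gave a second view, taken at summits, although the pairing of peaks still rests on where they end. Each control peak was set against the overlapping knockdown peak with the highest -log10 p. Where control peaks were joined, the same knockdown summit served for each, as at H4C16 (control pileups 36 and 41, knockdown 67). Of 52 control peaks in member windows 48 were overlapped by a knockdown peak and 4 were not. Of the 53 knockdown peaks 10 had no control counterpart and 6 joined several control peaks. At the 48 shared peaks the ratio of summit pileup, scaled by the depth proxy, had a median of 1.30 (quartiles 1.03 to 1.75, range 0.646 to 2.75), and 39 ratios were above 1. The median over all 21910 shared peaks was 1.63, with 91.9% above 1, and over 8937 shared peaks at other promoters 1.72. Among peaks with a control pileup of 28 to 37, the quartiles of the members, the median was 1.35 at 27 member peaks and 1.71 at 1921 other promoter peaks. The 95% exact interval of the ratio, which covers counting error only, lay above 1 at 16 of the 48 peaks, below 1 at none and held 1 at 32. The 48 ratios used 42 distinct knockdown peaks, so they are not independent. With a reciprocal overlap of 50% required, 32 pairs remained and their median was also 1.30. Unscaled, the median was 1.20.

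Height and cover ranked the clusters differently. The median pileup ratio was 1.57 for the H2BC18 to H2AC21 cluster (7 peaks), where cover was nearly level, and 1.01 for the H2BC13 to H2BC17 cluster (6 peaks), where knockdown-only peaks were called. It was 1.23 in the H1-1 to H4C8 cluster (27 peaks, 7 below 1) and 1.19 at H2BC11 to H2AC12 (3 peaks). The highest ratios were at the testis pair, 2.75 (interval 1.48 to 5.39) at H2BC1 and 2.39 (1.26 to 4.74) at H2AC1, from control pileups of 15 each and knockdown pileups of 38 and 33. Near H2AC21 the pileup was 60 and 120 (ratio 2.17, interval 1.58 to 3.01). The lowest ratio was upstream of H1-3, a linker histone gene, with pileups of 37 and 22 (0.646, interval 0.363 to 1.12). Next came H1-2, another linker histone gene, with 50 and 36 (0.782, interval 0.495 to 1.23) and H3C3 with 34 and 25 (0.799, interval 0.457 to 1.38).

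**Figure D5:**
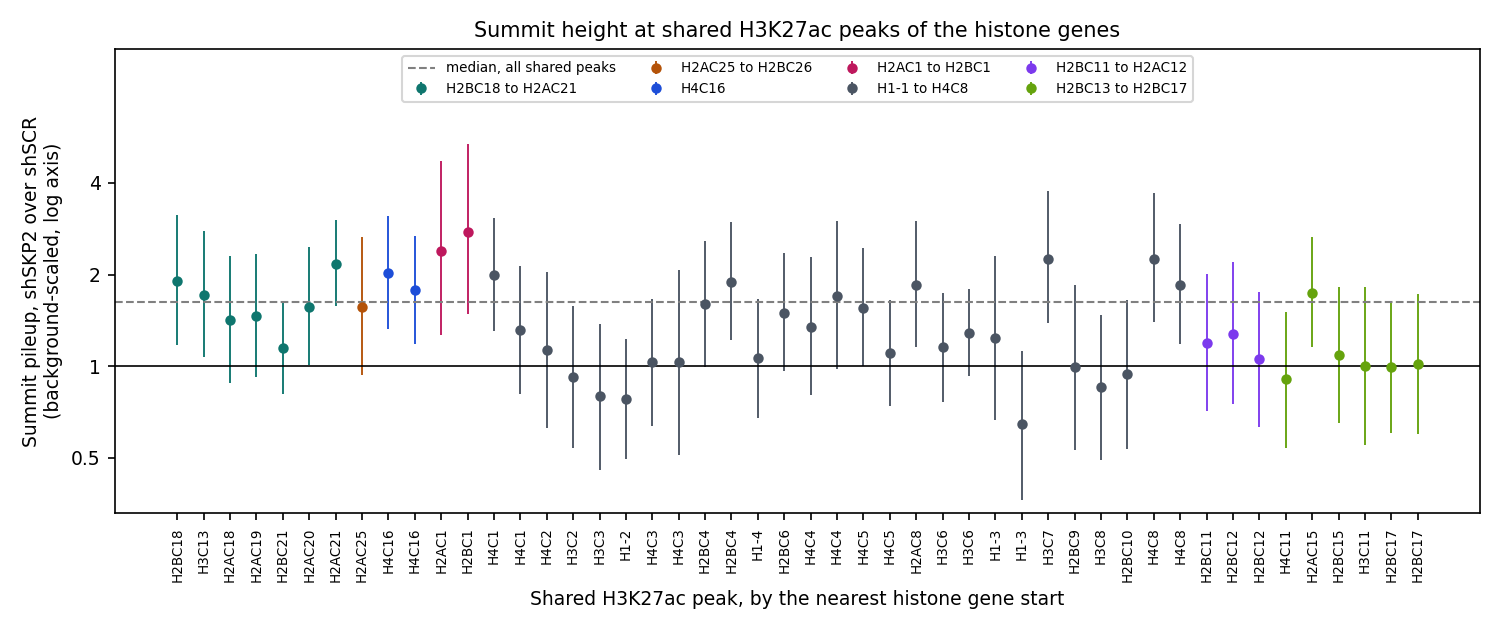
Ratio of summit pileup, shSKP2 over shSCR and scaled by background (y axis, log axis), at each of the 48 shared H3K27ac peaks, ordered by position and named by the nearest histone gene start (x axis); bars are 95% exact intervals for counting error and the dashed line is the median of all shared peaks, 1.63. The chromosome 1 and testis pair peaks are all above 1, and the intervals of 32 peaks hold 1.

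The local background under shared peaks, not scaled by the depth proxy, was higher at members than over all shared peaks. At shared peaks it had a median of 7.06 fragments in the control and 7.49 in the knockdown at members, and 5.25 and 6.63 over all shared peaks. The deposited fold divides by it, and the median ratio of fold was 1.07 at members and 1.20 over all. The median width ratio was 1.39 at members and 1.64 over all. Whether the background bears on the smaller difference at histone genes was not tested.

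The highest folds at members carried different gene names in the arms, apart from the HFE peak, though names follow the nearest start. In the control the highest was 7.39 at the HFE promoter, 15.8 kb from the H4C3 start and inside the long H2BC4 gene. It was followed by H3C6 (6.03), a peak nearest to H2BC6 but 11.5 kb from its start (5.90), H3C13 (5.83) and H4C11 (5.72). In the knockdown list they were H2BC18 (7.12), H2AC19 (7.06), the HFE peak again (6.94), H3C1 and H3C7 (6.83 each). The knockdown peak named H2BC18 overlaps the control peak named H3C13, so these names mark the same place. H2BC18 encodes H2B, H2AC19 H2A, and H3C1, H3C6, H3C7 and H3C13 encode H3. By -log10 p the H3C6 peak ranked 936 of 25356 in the control list. Of 38457 knockdown peaks the one at H2AC21 ranked 1198, that at H3C6 2201 and that at H3C1 2862. All member peaks had a median rank of 37.5% from the top in the control list and 40.1% in the knockdown list.

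Few MYOD peaks were called at histone genes. In the control list 2 members (2.90%) had a MYOD peak in their window, against 17.2% of all genes, and after knockdown 7 members (10.1%), against 24.3%. These windows span the whole gene, so longer genes have more room for a peak. With 2 kb on each side of the start, 1282 of 20033 genes had one in the control and 2168 after knockdown. The members were again 2 and 7 of 69, so after knockdown their share was close to that of all genes. The member counts rested on 1 control and 4 knockdown peaks. The peak of both lists lay at the H2BC4 and H2AC6 pair (chr6:26122960-26123343 in the control, 6.10-fold, pileup 15, and chr6:26123130-26123402 in the knockdown, 7.23-fold, pileup 25). Its summit was 730 and 722 bp downstream of the H2BC4 start, beyond the short canonical transcript, and it overlapped an H3K27ac peak in each arm. Peaks at H3C13 (chr1:149813360-149813599, 3.74-fold, pileup 10), H4C16 (chr12:14769987-14770252, 3.15-fold, pileup 11) and H3C11 (chr6:27872059-27872272, 4.42-fold, pileup 12) were in the knockdown list alone. The H3C13 peak also lies in the H2BC18 window and the H3C11 peak in the H4C13 window. The knockdown library was the deeper one for MYOD by the proxy, and these 3 peaks ranked 7953, 8378 and 6649 of 8457.

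The H3C13 and H3C11 summits lay within the coding sequence of these histone genes, and that of H4C16 beyond the end of its canonical transcript. The H3C13 and H4C16 peaks overlapped an H3K27ac peak of the knockdown arm and the H3C11 peak did not. The sequence around the E-box nearest to the summit is printed for the 3 sites that have one, in hg38 on the plus strand, to show the motif and its place at each site. Capitals mark the E-box.
H2BC4, chr6:26123189-26123218: gacagggacagaCAGCTGggtctgaaacct
H4C16, chr12:14770032-14770061: cacgcccgccgcCAGGTGgccgagcaggac
H3C11, chr6:27872241-27872270: cgccttggtggcCAGCTGcttgcgcggcgc
At H2BC4 the E-box lay 7 bp from the control summit and 1 bp from the knockdown summit. It was 24 bp away at H4C16 and 56 bp away at H3C11, where it is part of the coding sequence. H4C16 also had a CAGCTG within 100 bp of its summit, as H2BC4 and H3C11 did, and the H3C13 peak had no CANNTG within 100 bp of its summit. Within the same distance CAGCTG was present at 64.3% of control and 60.7% of knockdown MYOD peaks.

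Genes that serve histone supply were taken from a list of 40, with the same windows. More of them had an H3K27ac peak than protein-coding genes in general: 32 in the control and 37 after knockdown, against 53.5% and 64.1% of all genes. Among genes with a peak in both lists, their change of cover was close to that of all genes. Of the 40, 36 had more after knockdown and 1 had less, against 60.6% and 4.12% of all genes. Of the 32 with a peak in both lists all but 1 had more, against 93.4% of all genes with a peak in both, and their median log2 ratio was 0.89 against 0.83. Genes of the histone locus body and its transcription factors had more cover at 11 of 11 (median 1.16 over the 8 with a peak in both lists). NPAT, the coactivator of histone transcription, had 674 and 1730 bp, CASP8AP2, a locus body component, 315 and 1587 bp, and CDK2, the cyclin E partner, 594 and 1411 bp. CCNE1 and CCNE2, which encode cyclin E, had none in the control and 433 and 1114 bp after knockdown. POU2F1, which encodes the octamer-binding factor OCT1, was nearly level at 1181 and 1208 bp.

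The counts of the other roles stand beside 60.6% of all genes with more cover and 4.12% with less, and medians are over genes with a peak in both lists. Replacement histones, which are made outside S phase as well, had more cover at 10 of 10 (median 0.91, 9 genes). H2AX, the variant phosphorylated at DNA breaks, had 315 and 1122 bp, and H2AJ, a replacement H2A, 0 and 753 bp. Histone chaperones had more at 6 of 7 (median 0.95, 6 genes), led by HIRA, the H3.3 chaperone, with 1520 and 3197 bp. Genes of 3' end processing and turnover had more at 9 of 12 and less at 1 (median 0.45, 9 genes). ERI1, an exonuclease of the stem-loop, had 1966 and 3568 bp, SLBP 256 and 341 bp, and CSTF2T, a cleavage factor subunit, 1306 and 1271 bp.

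A MYOD peak was present at 9 of the 40 in each list, against 17.2% and 24.3% of all genes. CDK2, ERI1, DAXX, an H3.3 chaperone, and H2AZ1, a replacement H2A, had one in both lists. It was in the control list alone at CRAMP1, SLBP, CPSF2, NASP and H2AX, and in the knockdown list alone at E2F1, SYMPK, TUT7, ASF1B and HIRA. CRAMP1 is linked to H1 gene expression, E2F1 is an S-phase transcription factor, and NASP and ASF1B are histone chaperones. CPSF2 and SYMPK belong to the cleavage machinery and TUT7 adds uridines to histone mRNA.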

How the data were processed

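Chromatin of RD cells, fixed with formaldehyde and cut with micrococcal nuclease, was immunoprecipitated for MYOD or H3K27ac, with Drosophila chromatin added as a spike-in. Per the labels and the methods, the authors aligned reads to GRCh38 with BWA 0.7.17, called peaks per library with MACS3 and removed peaks in the ENCODE exclusion list. Use of the spike-in for scaling in MACS3 is not given in the sources used here, so cover and pileup do not measure absolute occupancy. The deposited fold is the ratio of summit pileup to local background after the same small constant is added to both, so it is below the plain ratio. It comes with the authors' −log10 p and −log10 q for each peak and a score, of which q and score were not used. The smallest −log10 p was just above 4, although the methods state a threshold of 5, and 2.41 to 4.13% of peaks were under 5. Pileup and background were recovered from fold and p as a Poisson probability, with a whole-number pileup for at least 99.9882% of peaks (tolerance 0.001 in −log10 p), tested on simulated data. Windows came from GENCODE release 44, with pandas 2.3.3, numpy 2.4.6 and scipy 1.17.1.

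The members, gene lists and comparisons were chosen with earlier results of these data known. Named members were those with a MYOD peak, with the 5 largest gains and losses of cover, with the 5 highest folds per list, with a peak in 1 list alone or in none, and the testis or restricted genes. Named related genes were those with a MYOD peak and the 2 largest gains and losses. Genes named beyond this rule (NPAT, CASP8AP2, CCNE1, CCNE2, POU2F1, H2AJ, H2BC12, H2AC12, H2AC18, neighboring genes, the genes without a stem-loop match, and H1-2, H1-3, H2AC21 and H3C3 at the ends of the pileup ratios) were chosen after their values were seen. With 1 library per group no p-value between groups is given, and intervals cover counting error only.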

Additional observations from a re-analysis of the deposited data

How the results depend on the processing

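The alternatives were other thresholds, windows, overlaps and scalings, and the windows around the start and around the canonical transcript were added after seeing the data. Of 92 values recomputed, 77 stayed within their tolerance and 15 moved, and no ratio changed sign. The order of the arms did turn for members with an H3K27ac peak, from 49 in the control and 55 after knockdown to 49 and 48 with lists of equal length and to 37 and 36 at a minimum −log10 p of 10. At that minimum 12 members had less cover and 2 had a MYOD peak after knockdown. With lists of equal length 26 members had more and 25 less cover, against 36 and 19, and 2 had a MYOD peak after knockdown. With the gene body alone, 27 members had H3K27ac in the control and 34 after knockdown, 8 had less cover, and 1 and 4 had MYOD. With merged windows counted once, 28 stretches had H3K27ac in the control and 32 after knockdown, 22 had more and 10 less cover, and 1 and 4 had MYOD. These settings use fewer peaks, shorter windows or fewer units by construction. The members' median log2 ratio of cover ranged from 0.02 with lists of equal length, where that of all genes was 0.64, to 0.27 at that minimum −log10 p, where it was 0.84. No paired analysis was possible because each group has 1 library. For the same reason no replicate could be left out.

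What limits these values is the calling threshold: a missing peak is no measure of absent acetylation or binding. Depth is known only through the lowest background, which also scales with the fragment length assumed in calling. Cover counts the length of called peaks and can be larger through wider calls without a higher summit. These libraries carry no measure of RNA or of the cell cycle.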
